A study of Bos taurus with 45 samples.

Results

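Endometrial explants cultured with a piece of conceptus were set against explants of the same uterus cultured alone, so that each uterus served as its own control. The changes of genes absent from a list of interferon genes were followed gene by gene and uterus by uterus. The members were the endometrial libraries of all uteri with both cultures, which were 26 of the 45 libraries of the series: 11 of explants cultured alone (Endo) and 15 of explants cultured under sections of conceptuses (Endo-IVD Conc endometrium), from 11 of the 13 uteri. The uteri came from synchronised Angus-Holstein heifers that were not bred and were collected on Day 16 of the estrous cycle. The conceptuses were grown in vivo (IVD) by other heifers after insemination with semen of a single bull, and a section of one was laid on an intercaruncular explant for 12 h in RPMI medium with dialysed serum, which mono-cultured explants received as well. Of the 11 uteri, 4 (14, 19, 38 and 39, numbered by heifer) gave a pair of co-cultured explants with different conceptuses, whose counts were summed for the test and whose log2 levels were averaged for the difference of a uterus. Uteri that received sections of the same conceptuses form a culture set, of which there were 6. The sources differ on which conceptus lay on uterus 69, and the library title was followed, which puts it with uterus 70. By the other source it would belong with uteri 45 and 53. Explants held epithelium, stroma, vessels and resident leukocytes together, in medium without the hormones of the animal, and the whole-tissue reads do not separate these cells.

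During early pregnancy in cattle the trophoblast of the elongating conceptus secretes interferon tau, the signal by which the mother recognises pregnancy. It binds the type I interferon receptor on endometrial cells, activates a transcription factor complex that contains STAT2 and IRF9, and induces a large set of antiviral genes, and it holds back the pulses of prostaglandin F that would end the luteal phase. The conceptus also releases prostaglandins, proteins and metabolites, and the intercaruncular endometrium, whose glands feed the conceptus, can respond to these without the antiviral genes.

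Library totals ranged from 44.21 to 61.5 M counts in Endo and 48.67 to 63.97 M in co-culture. Genes of an interferon list written from textbook knowledge took 1.196 to 1.503% of all counts in Endo and 3.989 to 7.148% in co-culture, with no overlap. After a filter on low counts, 16423 of 27270 genes were tested. Of these, 196 were on the interferon list and 1936 had no symbol. The other 14291, named genes absent from the list, are called genes off the interferon list below. The name says no more than that, since no list of interferon-regulated genes is complete. The study, with a published list of genes regulated by interferon tau and its own test, found more such genes raised than the 196 tested here. Genes off the present list may include some of them. Epithelial and stromal markers were present in every library. The mono-cultured explant of uterus 16 stood apart, with the lowest summed level of the former and the highest of the latter among the 11. Several trophoblast genes were at or near 0 in both cultures, while 8 of the 31 trophoblast markers in the table passed the filter. The interferon tau genes IFN-TAU and IFNT3 had at most 4 and 5 counts in any co-cultured library. TKDP1, a trophoblast Kunitz domain protein, HAND1 and CDX2 had at most 4 each. ELF5 had 2 to 97 counts in co-culture and 0 to 53 in Endo.

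Co-culture with IVD conceptus tissue made 681 of the 14291 genes off the interferon list more abundant (4.77%) and 347 less abundant (2.43%), together 7.19% of them, by edgeR's quasi-likelihood test with the uterus as a block and a threshold of 0.05 on the p adjusted after Benjamini and Hochberg. Over all genes tested these counts were 958 (5.83%) and 371 (2.26%). The interferon list gave 155 more abundant (79.1%) and 1 less abundant (0.51%), TYK2, a kinase of the interferon receptor, and genes without a symbol gave 122 (6.3%) and 23 (1.19%). In whole tissue, fewer cells of a type and less RNA per cell cannot be told apart.

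Changes off the list were mostly small. The median size was 0.62 on the log2 scale for the more abundant and 0.40 for the less abundant genes, against 2.27 for the more abundant genes of the interferon list. Of the 681 more abundant genes, 168 changed by more than 2-fold and 65 by more than 3-fold. Of the 347 less abundant genes, 24 changed by more than 2-fold and 5 by more than 3-fold, and 225 had a log2 fold change smaller than 0.5. For 7878 of the 14291 genes (55.1%) the 95% interval of the log2 fold change lay within 0.5 of 0.

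The count of less abundant genes changed as single uteri were left out. It became 190 without uterus 14, 219 without uterus 38, 226 without uterus 54 or 69, 227 without uterus 56 and 233 without uterus 39. It was 277 without uterus 45, 297 without uterus 53, 377 without uterus 70, 382 without uterus 19 and 561 without uterus 16. The count of more abundant genes lay between 524 and 827 over the fits that left out 1 uterus. With limma over the 6 culture sets, 426 genes off the list were more and 119 less abundant, and with uterus 69 moved to the set of uteri 45 and 53, a check chosen after the data were seen, 367 and 94. With no block for the uterus, 387 genes off the list were more and 107 less abundant.

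The test blocked by uterus itself favours genes that agree over uteri, so the following counts describe the called genes. Among the 681 more abundant genes, 347 had a difference above 0 in 11 of 11 uteri and 594 in 6 of 6 culture sets. Among the 347 less abundant genes, 142 had one below 0 in 11 of 11 uteri and 285 in 6 of 6 sets. No called gene off the list moved its way in fewer than 8 uteri. Among all 14291 genes, 544 kept their sign in 11 of 11 uteri (3.81%), and 489 of these 544 also passed the test. Levels in co-culture and in mono-culture did not overlap at all for 85 genes (0.595%), of which 81 were more and 4 less abundant.

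**Figure D1:**
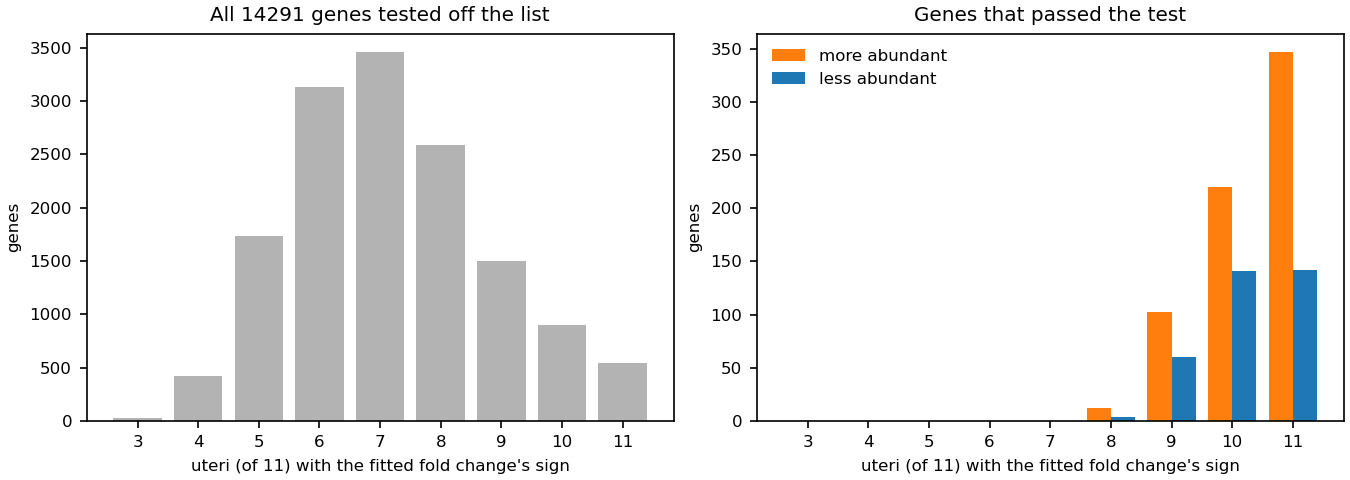
Number of uteri of 11 in which a gene off the interferon list differed in the direction of its fitted fold change (x axis), against the number of genes (y axis), for all 14291 genes tested (left) and for the 681 more and 347 less abundant genes (right). Most tested genes agreed in 6 to 8 uteri, and 489 of the 1028 genes that passed the test agreed in 11.

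Levels are counts relative to the TMM-scaled library total (CPM), given as lowest, median and highest of the 11 uteri. The ranking of increases and decreases covers genes off the list with a mean log2 CPM of at least 1. Its largest increases that held in every uterus were PLAC8B, KIF5C, FAM3B, TIFA, a copy of U1, FOXS1, PLEKHA4, CMTR2, CDADC1, PARM1, SLC15A3 and SASS6. PLAC8B, a cysteine-rich protein of the PLAC8 family, was at 0.934, 1.78 and 6.45 CPM in Endo and at 27.1, 59.5 and 99.6 CPM in Endo-IVD Conc endometrium. Its log2 fold change was 4.75 with a standard error of 0.24 (edgeR, adjusted p = 2.97e-09). Its lowest co-cultured uterus stood above its highest mono-cultured one, and its smallest difference, in uterus 69, was 3.35. SASS6, which builds the cartwheel of new centrioles, had the smallest spread over uteri of the 12 (SD 0.42, n = 11), with 5.71, 6.55 and 8.56 CPM in Endo and 24.1, 48.6 and 64.3 CPM in co-culture (log2 fold change 2.58 ± 0.12 standard error, edgeR adjusted p = 1.7e-09). CMTR2, a methyltransferase of the messenger RNA cap, was at 6.62, 10.8 and 15.1 CPM in Endo and 51.7, 74.4 and 93.2 CPM in co-culture, also without overlap.

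TIFA, an adaptor that relays sensing of bacterial sugars to NF-kB, went from 2.49, 5.62 and 11.1 CPM to 28.5, 56.3 and 96.8 CPM (log2 fold change 3.31, standard error 0.18). FOXS1, a forkhead transcription factor, went from 7.06, 13.4 and 19.4 CPM to 64.7, 117 and 145 CPM. For both genes every co-cultured uterus exceeded every mono-cultured one. The same was true of PLEKHA4, a phosphoinositide-binding protein, of CDADC1, a protein with a cytidine deaminase domain, of PARM1, a mucin-like membrane protein, and of SLC15A3, a lysosomal transporter of peptides and histidine, with log2 fold changes of 2.94, 2.64, 2.61 and 2.60.

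KIF5C, a kinesin motor heavy chain, was the single gene of the 12 with overlap. Uterus 16 already held 8.78 CPM of it in mono-culture and gained only 0.89 on the log2 scale, while the other 10 uteri gained 2.92 to 5.38. FAM3B, a secreted protein known from pancreatic islets, changed by 3.41 on the log2 scale (standard error 0.28), from a median of 1.19 to 14.2 CPM. It lies next to MX2, an antiviral GTPase gene of the interferon list whose log2 fold change was 8.35, and whether reads of the one were counted for the other was not tested. The U1 gene, for the small nuclear RNA of the spliceosome, was listed under a symbol shared by several genes and stayed at or below 1.58 CPM in Endo and at or above 3.99 CPM in co-culture. Reads of near-identical U1 copies may have been split between them. All 12 genes passed the test under each of 28 alternative settings.

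**Figure D2:**
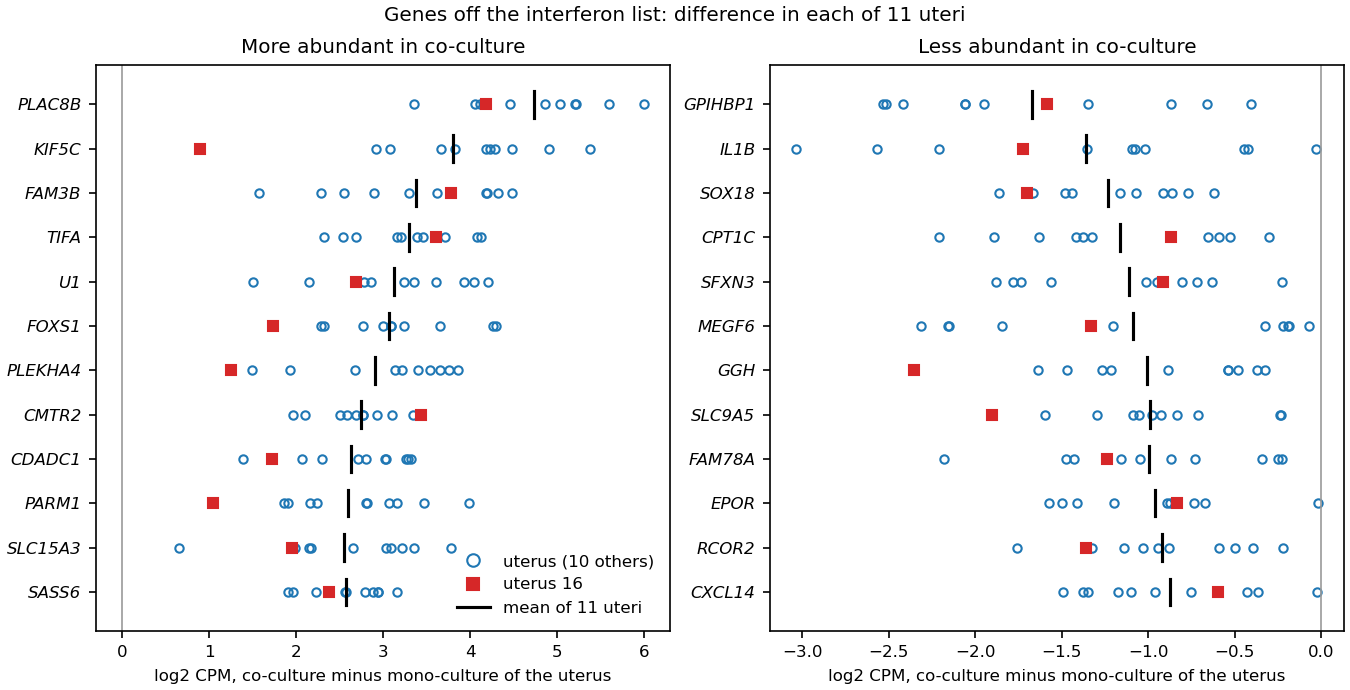
Difference in log2 CPM between co-culture and mono-culture (x axis) in each of 11 uteri. The 12 largest increases are on the left and the 12 largest decreases on the right. The genes are off the interferon list, have a mean log2 CPM of at least 1 and moved one way in every uterus. Circles are uteri, red squares uterus 16 and bars the mean; KIF5C in uterus 16, at 0.89, stands farthest below its other uteri.

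For scale, the interferon-list genes with the smallest p were the ADP-ribosyltransferase gene PARP14, its neighbour DTX3L, which encodes a ubiquitin ligase, and ZNFX1, an RNA helicase of antiviral defence. Their log2 fold changes were 4.77, 3.92 and 4.26 with an SD over uteri of 0.37, 0.22 and 0.31. PLAC8B was thus of the same size as PARP14 but varied more, with an SD of 0.78.

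Decreases were smaller and overlapped more. The 12 largest in that ranking that held in every uterus were GPIHBP1, IL1B, SOX18, CPT1C, SFXN3, MEGF6, GGH, SLC9A5, FAM78A, EPOR, RCOR2 and CXCL14. GPIHBP1, which holds lipoprotein lipase on the capillary wall, was at 3.26, 18.7 and 31.3 CPM in Endo and at 1.06, 5.38 and 13.4 CPM in co-culture, a log2 fold change of -1.68 (standard error 0.22, edgeR adjusted p = 0.000132). The groups overlapped, with uteri 16 and 53 low in mono-culture and uterus 70 high in co-culture, but the difference within a uterus was below 0 in all 11, from -2.53 in uterus 39 to -0.41 in uterus 70. SOX18, a transcription factor of endothelial cells, was at 65.9, 105 and 176 CPM in Endo and 20.2, 47.1 and 64.5 CPM in co-culture (log2 fold change -1.23, standard error 0.12, edgeR adjusted p = 5.19e-06), and was the single gene of these 12 without overlap.

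IL1B, a pro-inflammatory cytokine, fell from 5.99, 34.6 and 129 CPM to 2.83, 15.9 and 24.7 CPM, a log2 fold change of -1.35 (standard error 0.26, edgeR adjusted p = 0.00391). Uteri ranged from almost no difference in uterus 14 (-0.03) to -3.04 in uterus 19. CXCL14, an epithelial chemokine, went from 11.4, 46.9 and 122 CPM to 7.11, 24.1 and 51.6 CPM. CPT1C, a carnitine palmitoyltransferase known from neurons, went from 14.1, 50.7 and 74.6 CPM to 7.71, 21.4 and 41.1 CPM.

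The remaining decreases had log2 fold changes between -1.11 and -0.92. They were SFXN3, a mitochondrial carrier, MEGF6, a protein with EGF repeats, GGH, which trims glutamates off folates, SLC9A5, a sodium-proton exchanger, FAM78A, EPOR, the erythropoietin receptor, and RCOR2, a co-repressor. Of the 12 genes, 9 passed the test under all 28 alternatives. MEGF6 passed in 19 of the 28 and in 7 of the 11 fits without 1 uterus, whereas IL1B and CXCL14 each failed 1 alternative and no fit without 1 uterus.

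GPIHBP1 and SOX18 are known from endothelium, and SOX18 is itself on the list of endothelial markers. Of the 21 members of this list, all tested, 5 were less (23.8%) and 3 more abundant (14.3%). Beside this and every list below stand the shares over all genes off the interferon list, 2.43% less and 4.77% more abundant. The median log2 fold change of the endothelial list was -0.25, against 0.0024 over all genes tested. VWF, the clotting factor stored by endothelial cells, went from 181, 456 and 881 CPM to 159, 267 and 556 CPM (log2 fold change -0.74, standard error 0.14, edgeR adjusted p = 0.00323). EMCN, a sialomucin of capillaries and veins, changed by -0.61. The opposite direction was taken by MMRN2, a matrix protein of vessels (0.58), by PLVAP, the diaphragm protein of fenestrae (0.49), and by PROX1, the master transcription factor of lymphatic endothelium (0.68). PROX1 passed in 7 and PLVAP in 9 of the 11 fits that left out 1 uterus, and MMRN2 in all 11. The 3 increases became 1 without uterus 19 or 70, and 10 markers were less abundant without uterus 53. With limma over the 6 culture sets, 1 marker was more and 2 were less abundant, and MMRN2, PROX1 and EMCN did not pass. DESeq2 called 4 more and 11 less abundant, and as many were higher and lower at an unadjusted p of at most 0.05 in edgeR. APLNR, the apelin receptor, and PECAM1, an adhesion molecule between endothelial cells, were the others to fall in the main fit. The summed level of the list was 2678.5 to 8153.1 CPM in Endo and 2222.6 to 5552.6 CPM in co-culture, and 2 of 11 uteri had more of it in co-culture. Its part in the decreases of GPIHBP1 and SOX18 was not tested.

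Cytokines and chemokines that are not on the interferon list had 2 of 41 tested members more (4.88%) and 4 less abundant (9.76%). Of all genes off the list, 4.77% were more and 2.43% less abundant. IL23A, the specific subunit of interleukin 23, which sustains IL-17-producing lymphocytes, went from 8.04, 9.57 and 11.1 CPM in Endo to 22.4, 41.3 and 61.0 CPM in co-culture. No levels overlapped, and the log2 fold change was 2.03 (standard error 0.12, edgeR adjusted p = 3.05e-08). IL23A lies next to STAT2, whose own log2 fold change was 2.53. IL27, a cytokine subunit of antigen-presenting cells, was barely expressed, at 0.256 to 1.17 CPM in Endo and 0.495 to 2.02 CPM in co-culture, with a log2 fold change of 0.84. CCL22, a chemokine for regulatory T cells, fell with IL1B and CXCL14, from 0.712, 6.55 and 34.5 CPM to 0.0729, 1.8 and 11.2 CPM. The decrease of CCL22 held in 10 of 11 uteri. CXCL5, a neutrophil chemokine, was the other member to fall (-1.27, in 9 of 11 uteri). The list's median was -0.15.

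Genes of MHC class II presentation, by which cells show peptides to helper T cells, had the highest share of increases of any list but that of interferon, with 4 of 12 tested members more abundant and none less. BOLA-DMB, part of the chaperone that loads peptides, went from 3.80, 6.54 and 16.9 CPM to 18.3, 27.8 and 46.0 CPM, without overlap (log2 fold change 1.93, standard error 0.22, edgeR adjusted p = 3.1e-05). CTSS, the protease that trims the invariant chain, went from 54, 87.1 and 168 CPM to 115, 175 and 264 CPM. Its difference was above 0 in 11 of 11 uteri, though only 0.01 in uterus 69. RFX5, a transcription factor of class II promoters, changed by 0.74, and BOLA-DRA was the other member more abundant. The count stayed at 4 in each fit without 1 uterus, and the list's median was 0.19. Leukocyte markers, which could carry class II transcripts, had a summed level of 143.4 to 488.2 CPM in Endo and 101.8 to 470.4 CPM in co-culture, with more in co-culture in 2 of 11 uteri, while the median difference of the list was above 0 in 6. Of 35 tested, FCGR1A, an Fc receptor, and CD80, a co-stimulatory ligand that passed in 3 of the 11 fits without 1 uterus, were more abundant, and CD14, the co-receptor for lipopolysaccharide, was less.

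Regulators of cell death moved in both directions. Of 28 apoptosis genes 6 were more and 2 less abundant, with a median of -0.02. CFLAR, the inhibitor of caspase 8 activation, went from 23.4, 39.6 and 63.7 CPM to 37.6, 84.1 and 105 CPM (log2 fold change 0.84). XIAP, an inhibitor of caspases, and RIPK3, the kinase that drives necroptosis, each changed by 1.03, in 11 of 11 uteri. PMAIP1 and BID, which promote apoptosis, and the kinase RIPK1 were the others more abundant. BAD, which promotes apoptosis, was among those less abundant and fell by 0.40. Of 31 NF-kB pathway genes, 5 were more abundant and none less, with small changes: LTBR, the lymphotoxin receptor (0.37), TANK, an adaptor of TBK1 (0.48), CYLD, a deubiquitinase that restrains the pathway (0.42), and the tumour necrosis factor receptors TNFRSF1A and TNFRSF1B. LTBR, TANK and CYLD passed in all 11 fits without 1 uterus, and the count was 3 without uterus 14, 19, 38, 39, 54, 56, 69 or 70, but none of the 31 passed with limma over the 6 culture sets. The median of the list was 0.04.

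Protein turnover genes showed single large increases among small changes. Of 30 constitutive proteasome subunits, 3 were more and 3 less abundant, and the median was -0.03. PSMA2, an alpha-ring subunit, went from 52.4, 71.9 and 79.9 CPM to 123, 171 and 224 CPM, a log2 fold change of 1.31 (standard error 0.08, edgeR adjusted p = 4.04e-08), without overlap. PSMC3 and PSMA3 changed by 0.51 and 0.35, whereas PSMA7, PSMB3 and PSMB5 changed by -0.24, -0.24 and -0.30. The 3 decreases became 0 without uterus 14, 38 or 69 and 1 without uterus 53 or 56, whereas the 3 increases remained in number in every such fit. RUBCN, which slows the maturation of autophagosomes, went from 7.43, 11.1 and 16.7 CPM to 17.4, 32.4 and 61.4 CPM, again without overlap (1.49). The other autophagy genes of 34 that were more abundant were GABARAPL1, an ATG8 family member (0.72), and UVRAG, a partner of the lipid kinase that starts autophagy (0.45).

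Aminoacyl-tRNA synthetases outside the interferon list had 4 of 19 more abundant, namely CARS1 (0.44), AARS1 (0.42), YARS1 (0.42) and TARS1, with a median of -0.05. The count was 2 without uterus 19, 39, 45, 53 or 54 and 1 with limma over the 6 culture sets, and 2 others were less abundant without uterus 16. Translation factors had 1 of 43 more abundant (EIF5, 0.33) and 1 less (EIF2B3, -0.39), each in 7 of the 11 fits without 1 uterus. Either is 2.33% of the list, against 4.77% more and 2.43% less abundant of all genes off the interferon list. No cytosolic ribosomal protein gene of 82 passed, while 4 were lower and none higher at an unadjusted p of at most 0.05 in edgeR and 1, lower, passed in DESeq2 and 1 without uterus 16. Their median was -0.10, and 80 of the 82 had a fold change below 0.

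Decreases among genes of mitochondrial energy supply were small, and few passed in the main fit. Of 17 ATP synthase genes 3 were less abundant, ATP5F1D (-0.33), ATP5F1A (-0.22) and ATP5PF (-0.23). The median of this list was below 0 in 11 of 11 uteri, from -0.68 in uterus 53 to just under 0 in uteri 19, 39 and 56. Of 22 genes of complexes II to IV, 4 were less abundant (2 without uterus 14, 38, 39, 45, 54, 56 or 69) and 1, COX7A1, more (0.43, in 3 of the 11 fits without 1 uterus). COX7A2, a subunit of cytochrome c oxidase, went from 30.7, 38.5 and 43.4 CPM to 20.2, 26.9 and 35.4 CPM (-0.44, standard error 0.07, edgeR adjusted p = 0.000837), lower in 11 of 11 uteri. COX7B and UQCRQ, a subunit of complex III, each changed by -0.32. Complex I had 1 of 38 less abundant, NDUFB4 (-0.37), with 3 without uterus 16, and its median was -0.11. The median difference of a uterus was below 0 in 7 and above 0 in 4 uteri for complex I, and below 0 in 8 and above 0 in 3 for complexes II to IV. With limma over the 6 culture sets, 1 gene of complexes II to IV was less abundant and none of complex I, ATP synthase or the mitochondrial ribosome. DESeq2 called 1 gene of complex I, 6 of complexes II to IV and 6 of ATP synthase less abundant, and 1 of complexes II to IV more. At an unadjusted p of at most 0.05 in edgeR, 5, 7 and 7 were lower and 0, 1 and 1 higher. Over all genes off the list, DESeq2 called 816 less abundant, against 347 in the main fit.

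Of 76 mitochondrial ribosome genes, 65 had a fold change below 0, but 3 were less abundant by the test, MRPL12, MRPS34 and MRPL38, at -0.37, -0.44 and -0.29. MRPL32 stood apart from the 3 decreases, with 6.25, 9.12 and 13.4 CPM in Endo and 16.2, 22.3 and 34.4 CPM in co-culture, without overlap. Its log2 fold change was 1.25 (standard error 0.10). It lies beside PSMA2 in the genome, and both rose by a like amount. The study singled out subunits of complex I, ATP synthase and this group from these same samples, so the direction of these lists is not independent evidence. Their counts also changed as single uteri were left out. No ATP synthase gene was less abundant without uterus 14, 38, 45, 54 or 69, and 1 without uterus 53. No mitochondrial ribosome gene was less abundant without uterus 14, 38, 53, 54, 56 or 69, 1 was without uterus 39, 6 were without uterus 19 and 10 without uterus 16.

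In the secretory pathway, KDELR3 and KDELR1, receptors that return escaped chaperones to the endoplasmic reticulum, were less abundant in 11 of 11 uteri. KDELR3 went from 78.9, 112 and 148 CPM to 57.9, 80.8 and 91.0 CPM (-0.50, standard error 0.08, edgeR adjusted p = 0.000491), and KDELR1 changed by -0.37. TMED9, a cargo receptor, changed by -0.29 but passed in only 3 of the 11 fits without 1 uterus, and SEC24B, a coat protein of export vesicles, changed by 0.56. These were the 3 less and 1 more abundant of 46 genes of vesicle traffic between endoplasmic reticulum and Golgi, whose median was -0.08, and 5 were less abundant without uterus 53. DESeq2 called 6 of the 46 less and 1 more abundant, and limma over the 6 culture sets 2 and 1. At an unadjusted p of at most 0.05 in edgeR, 12 were lower and 3 higher. N-linked glycosylation had 1 of 35 less abundant (DAD1, a subunit of oligosaccharyltransferase, -0.29) and a median of -0.15. None was less abundant without uterus 14, 38 or 69, 2 were without uterus 53 and 5 without uterus 16. DESeq2 called 9 of the 35 less abundant and none more, whereas with limma over the 6 culture sets none passed. At an unadjusted p of at most 0.05 in edgeR, 10 were lower and none higher. The median difference of this list was below 0 in 9 of 11 uteri. Among 43 genes of folding in the endoplasmic reticulum none passed, with 3 higher and 2 lower at an unadjusted p of at most 0.05 in edgeR and 1 higher and 2 lower in DESeq2. Without uterus 16, 1 of these passed each way, 2 were higher without uterus 39 and 1 was lower without uterus 19 or 53.

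**Figure D3:**
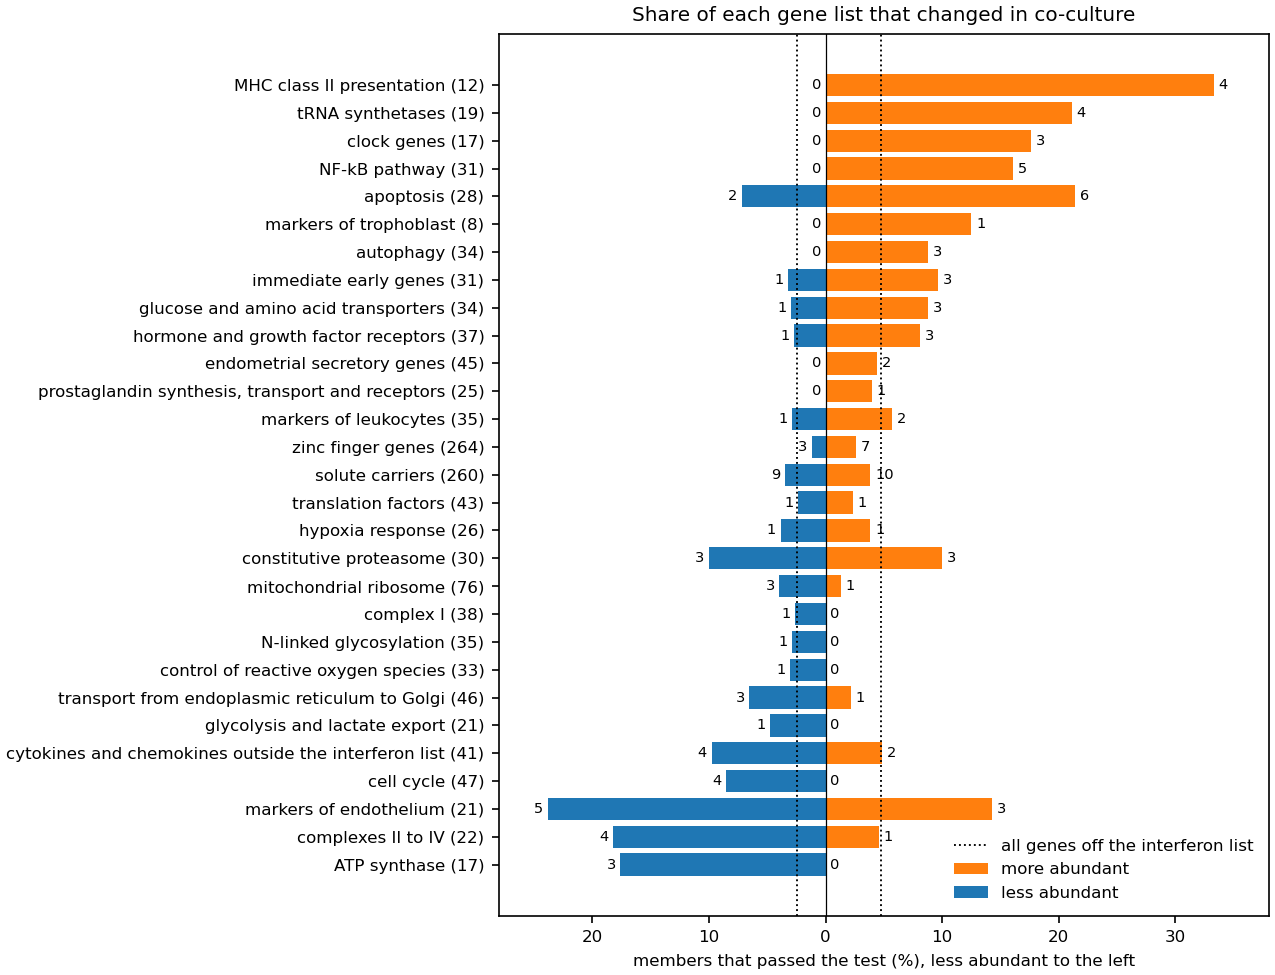
Share of the tested members of each gene list that were more (right, orange) or less (left, blue) abundant in co-culture, for lists with at least 1 such member outside the interferon list. The number tested stands in parentheses, counts stand at the bars, and dotted lines mark 4.77% and 2.43%, the shares over all genes off the interferon list. MHC class II presentation reaches 4 of 12 on the right and endothelial markers 5 of 21 on the left.

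Receptors for hormones and growth factors had 3 of 37 more (8.11%) and 1 less abundant (2.7%), and a median of 0.09. Of all genes off the list, 4.77% were more and 2.43% less abundant. NR3C1, the glucocorticoid receptor, went from 32.4, 47.0 and 97.6 CPM to 49.8, 88.3 and 111 CPM, higher in 10 of 11 uteri (log2 fold change 0.79, standard error 0.13, edgeR adjusted p = 0.00109). IGF2R, which clears insulin-like growth factor 2 and sorts lysosomal enzymes, went from 21.8, 29.2 and 34.0 CPM to 13.8, 20 and 26.5 CPM, lower in 11 of 11 (-0.56). LIFR, the receptor of leukaemia inhibitory factor, and PGR, the progesterone receptor, had log2 fold changes of 1.18 and 0.48 but rose in 8 uteri each, and each passed in 4 of the 11 fits that left out 1 uterus.

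Clock genes had 3 of 17 more abundant and none less. They were BHLHE41, a repressor of clock transcription (0.65), ARNTL, the partner of CLOCK (0.42), and NR1D2, a nuclear receptor that represses it (0.37), higher in 10, 10 and 9 of 11 uteri. NR1D2 passed in 2 of the 11 fits without 1 uterus and ARNTL in 6, and 1 clock gene passed with limma over the 6 culture sets. Immediate early genes had 3 of 31 more abundant, DUSP6, a phosphatase of ERK (0.53), KLF2, a transcription factor induced by flow in vessels (0.66), and NR4A2, an orphan nuclear receptor (0.36), and 1 less, IER3 (-0.41, in 3 of the 11 fits without 1 uterus). Without uterus 16, 5 were more abundant, and with limma over the 6 culture sets none passed.

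Transporters were split. Of 260 solute carriers, 10 were more (3.85%) and 9 less abundant (3.46%), against 4.77% and 2.43% of all genes off the list. These counts were 5 and 3 without uterus 14, and increases also numbered 5 without uterus 54 or 70 and 6 without 38 or 69, decreases 4 without 38 or 39 and 5 without 45, 56 or 69. The mitochondrial carrier SLC25A30 changed by 1.46. SLC25A28, the mitochondrial iron importer, went from 75.9, 92.1 and 122 CPM to 182, 325 and 425 CPM, without overlap, and its difference ranged from 0.64 in uterus 45 to 2.25 in uterus 70. SLC39A14, an importer of zinc, iron and manganese, fell from 88.6, 212 and 458 CPM to 81.8, 123 and 172 CPM (-0.80, standard error 0.13, edgeR adjusted p = 0.000689) and was lower in 10 of 11 uteri. SLC49A3 changed by -0.35. Among 34 transporters of glucose and amino acids, SLC6A9, a glycine transporter (0.67), and SLC3A2, the shared heavy chain of amino acid exchangers (0.27), were more abundant besides SLC15A3, and SLC43A1, a carrier of branched-chain amino acids, was less (-0.25). SLC3A2 and SLC43A1 each passed in 4 of the 11 fits without 1 uterus.

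Zinc finger genes had 7 of 264 more (2.65%) and 3 less abundant (1.14%), under the 4.77% and 2.43% of all genes off the list. Increases numbered 4 without uterus 14, 45, 53 or 54, and decreases ranged from 0 without uterus 54 and 1 without 14 or 56 to 5 without 19 and 6 without 16. ZNF628 (1.02), ZNF366, a co-repressor of estrogen receptor (1.38), and ZNF654 (0.62) were more abundant, and ZNF484 (-0.27), ZNF428 (-0.38) and ZNF584 (-0.43) less. Of 47 cell cycle genes 4 were less abundant and none more, PCNA, the clamp of DNA replication (-0.33), CDK4 (-0.32), TPX2, a spindle factor (-0.57), and MCM7. The count was 2 without uterus 19, 38, 39, 54, 56 or 69.

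Lists tied to luteolysis, histotroph and metabolism had few genes past the test. Of 25 prostaglandin genes, HPGDS, a prostaglandin D synthase, passed (0.81), and did so in 2 of the 11 fits without 1 uterus. Of 45 secretory genes of the endometrium CTSS and ANPEP, a membrane aminopeptidase (0.97, higher in 8 of 11 uteri), passed, and the count was 1 without uterus 14, 16, 38, 39, 53, 56, 69 or 70. The log2 fold changes of the 45 ran from -1.61 to 0.97. ALDOC, a glycolytic aldolase (-0.52), was the 1 of 21 glycolysis genes to fall, with 2 lower without uterus 19 or 38 and 1 higher without uterus 16 or 39. ANGPTL4, a secreted inhibitor of lipoprotein lipase (0.33, in 3 of the 11 fits without 1 uterus), and P4HA2, a collagen prolyl hydroxylase (-0.30), were the changes among 26 hypoxia genes, of which 2 were higher without uterus 16. PRDX2, a peroxiredoxin (-0.28), was the 1 among 33 that control reactive oxygen species, with 4 without uterus 16 and none without uterus 14, 38, 45 or 56. That list too holds genes the study named from these samples. No gene passed among 27 of cholesterol synthesis, 27 heat shock proteins, 35 collagens or 32 matrix proteases and inhibitors. At an unadjusted p of at most 0.05 in edgeR these lists held 0, 0, 2 and 1 higher and 2, 0, 1 and 3 lower, and DESeq2 called 2 lower, 0, 2 higher and 2 lower of their genes. Single genes passed on leaving out 1 uterus, which were a cholesterol gene, lower, without uterus 19 or 45, a heat shock gene, higher, without uterus 16, and a matrix gene, lower, without uterus 16 or 70. With limma over the 6 culture sets none of these 4 lists, glycolysis, hypoxia or reactive oxygen species had a gene past the test.

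Profiles of uteri were less alike off the interferon list than on it. The spread of a gene over uteri was of like size, with a median SD of 0.43 off the list and 0.51 on it, and correlation across genes also rises with the range of fold changes in a list. The difference of 1 uterus was correlated across genes with the mean difference of the uteri from other culture sets, which by the library titles share neither endometrium nor conceptus with it. For the interferon list this correlation was 0.933 to 0.972, and for the 14291 genes off the list it was 0.009 in uterus 16 to 0.472 in uterus 14, with a median of 0.377. Genes are not independent replicates, so these values describe likeness only. Between the differences of 2 uteri off the list, correlations ran from -0.153 to 0.412 for the 5 pairs of a culture set (median 0.032) and from -0.428 to 0.532 for the 50 other pairs (median 0.172).

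Directions carried over to uteri that had no part in choosing the genes. For each culture set, genes off the list were called in the other uteri, and their sign was read in the uteri left out. Of the genes called more abundant, 70.5 to 98.6% were higher in the uterus left out (median 90.8% over 11 uteri). Of those called less abundant, 54.5 to 95.6% were lower (median 85.4%), and among genes that were not called 44.3 to 63.4% kept their sign. In uterus 54, 417 of 423 genes called more abundant elsewhere were higher, and in uterus 14, 109 of 114 genes called less abundant elsewhere were lower. Uterus 16 was lowest in each measure, with 504 of 715 and 205 of 376, and uterus 53 next lowest for decreases with 173 of 283. With uterus 69 counted with uteri 45 and 53, a check chosen after the data were seen, the shares in uteri 45, 53, 69 and 70 were 82.3, 88.9, 90.7 and 93.9% for increases and 74.2, 60.7, 93.8 and 78.0% for decreases.

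**Figure D4:**
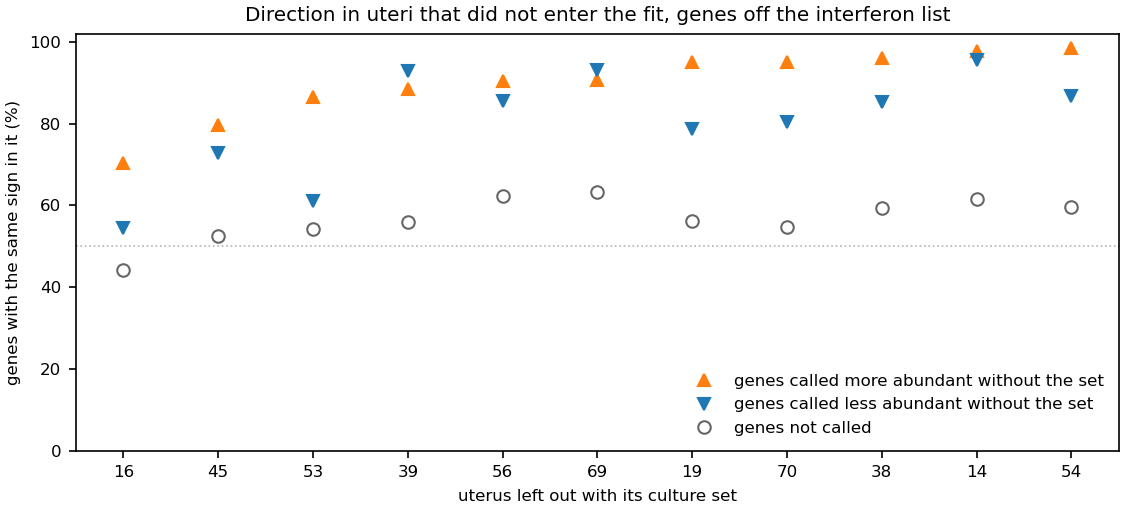
Percentage of genes off the interferon list (y axis) whose difference in a uterus had the sign found in a fit without that uterus and its culture set, for each of 11 uteri (x axis). Triangles pointing up are genes called more abundant, triangles pointing down genes called less abundant and circles genes not called; uterus 16 is lowest, at 70.5% and 54.5%.

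Uterus 16 stood apart in its tissue markers. In its mono-cultured explant, 26 epithelial markers summed to 718.8 CPM, the lowest of the 11 Endo libraries, and 20 stromal markers to 31628.4 CPM, the highest. Its co-cultured explant held 3126.8 and 13208.3 CPM. The median log2 difference of uterus 16 was 2.30 for the epithelial list, against -1.52 to 0.63 in the others, and -1.31 for the stromal list, against -0.86 to 0.79. Its interferon list median, 1.41, lay within the range of the others, from 1.10 to 2.15. Without uterus 16, 825 of the 14274 genes off the list tested in both fits were more abundant (5.78%) and 561 less (3.93%), and 437 and 269 of these moved one way in all 10 remaining uteri.

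The epithelial and stromal lists themselves did not move in a shared direction. In co-culture their summed levels were higher in 6 and 5 uteri. No epithelial or stromal marker passed, with 2 epithelial markers higher and 1 stromal marker lower at an unadjusted p of at most 0.05 in edgeR, and 1 epithelial and no stromal marker in DESeq2. Likewise none of 17 ciliated and 6 erythroid markers passed the test in edgeR or in DESeq2, or had an unadjusted p of at most 0.05.

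Smooth muscle markers had list medians from -0.93 to 3.89 over uteri. Their sum was 623.7 to 2041.0 CPM in Endo and 723.4 to 10505.0 CPM in co-culture. Uterus 38 went from 1542.9 CPM to 10505.0 and 4029.7 CPM in its pair of co-cultures, and uterus 69 from 672.4 to 6336.0 CPM. None of the 10 markers passed in the main edgeR fit or in DESeq2, or had an unadjusted p of at most 0.05 in that edgeR fit. With no block for the uterus, 1 of them, ACTG2, was more abundant. ACTG2, the gamma actin of visceral muscle, was at 1.90, 8.09 and 53.9 CPM in Endo and 1.86, 12.9 and 608 CPM in co-culture, with differences from -2.82 in uterus 70 to 7.88 in uterus 69. ACTA2, MYH11, DES and TAGLN, further contractile genes, had log2 fold changes of 1.02, 0.79, 0.65 and 0.26 with standard errors of 0.63, 0.50, 0.50 and 0.39. SYNPO2, MYLK, SMTN, LMOD1 and CNN1 lay between 0.14 and 0.78, none of them past the test. Without uteri 38 and 69, 520 genes off the list were more and 169 less abundant.

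**Figure D5:**
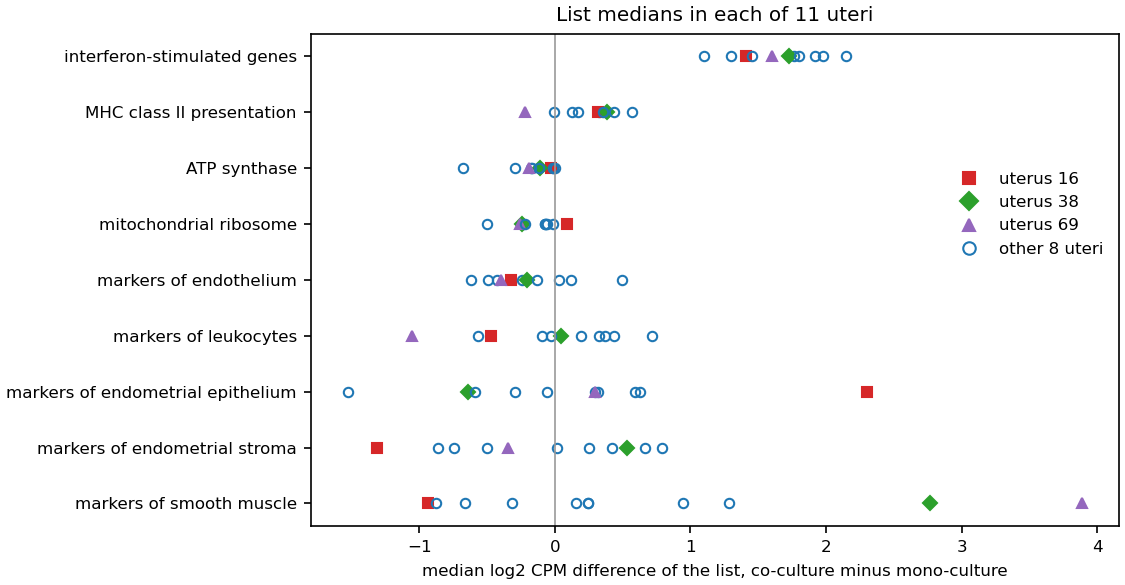
Median difference in log2 CPM between co-culture and mono-culture (x axis) over the members of 9 gene lists (y axis) in each of 11 uteri. The interferon list is above 0 in every uterus, from 1.10 to 2.15, whereas epithelial, stromal and smooth muscle markers spread to both sides, with uterus 16 at 2.30 and -1.31 and uteri 38 and 69 at 2.77 and 3.89.

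The genes off the list whose difference varied most over uteri were SERPINA14, ACTG2, PRSS16, M-SAA3.2, PDLIM3 and HBA, and none of them passed the test. SERPINA14, the uterine serpin secreted by glands under progesterone, ranged over 0.0791, 25.9 and 1606.4 CPM in Endo and 1.27, 11.8 and 366 CPM in co-culture. Its difference was -9.61 in uterus 19 and 4.76 in uterus 45 (SD 4.01, n = 11), lower in 8 of 11 uteri (log2 fold change -1.61, standard error 1.10, edgeR adjusted p = 0.486). The co-cultured uteri lay within the range of the mono-cultured ones.

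PRSS16, a thymic serine protease, ranged from -5.41 in uterus 70 to 6.07 in uterus 69, and M-SAA3.2, a serum amyloid A of epithelia, from -5.74 in uterus 19 to 3.34 in uterus 16. PDLIM3, a protein of muscle cytoskeleton, followed ACTG2 in its extremes, at 4.39, 3.48 and 6.19 in uteri 38, 54 and 69. HBA, haemoglobin alpha, differed by 5.78 and 6.6 in uteri 19 and 39, whose mono-cultured explants held 1.42 and 1.13 CPM of it, and by -0.60 to 0.47 in the other 9 uteri.

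Of the 31 trophoblast markers in the table, 8 passed the low-count filter, and several of these are also endometrial genes, such as KRT18 and GATA2. Their summed level was 549.6 to 813.2 CPM in Endo and 675.5 to 983.4 CPM in co-culture, above the mono-culture of the uterus in 9 of 11. PAG1, a symbol shared by a pregnancy-associated glycoprotein and a membrane adaptor of signalling, was at 1.99, 3.44 and 5.89 CPM in Endo and 3.34, 5.50 and 12.6 CPM in co-culture (log2 fold change 0.75, standard error 0.16, edgeR adjusted p = 0.00738), higher in 10 of 11 uteri, and which of these genes was counted was not settled by the symbol. ETS2, a transcription factor that drives the interferon tau gene in trophoblast, had 0.40 and did not pass. TFAP2A (-0.57), SSLP1 (0.44), GATA3 (0.14), KRT18 (0.16), TFAP2C (-0.14) and GATA2 (0.02) did not pass either. The other 23 markers together had 5 to 152 counts per library in Endo and 4 to 101 in co-culture, and 13 and 11 of them had none in any library.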

How the data were processed

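Poly(A) RNA of 26 endometrial libraries was analysed. The deposited values are raw counts of reads per gene, which the authors made by trimming with Trimmomatic, aligning to ARS-UCD1.2 with STAR and counting with featureCounts, as their processing notes and methods name them. The study names a stranded library kit. The sources used here give neither the versions nor whether counting used strand. All value columns matched a sample by title (0 unmatched). The deposited conceptus table was not used here.

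Counts of co-cultures of a uterus were summed, giving 22 columns. Genes were kept by filterByExpr (minimum count 10, minimum total 15), scaled by TMM and tested with edgeR 4.0.16 (R 4.3.3, robust quasi-likelihood, uterus as block), with Benjamini-Hochberg adjustment over 16423 genes. The pairing comes from heifer numbers in the library titles. With group means removed, the cultures of a uterus correlated at 0.253 to 0.66 (median 0.422, against -0.0337 between uteri), over 0.1 in 11 of 11. Uteri are separate animals but share conceptuses, so p-values over uteri may be too small, and 6 culture sets were also tested. Per-uterus differences used log2 CPM (prior count 2), and co-cultures were averaged. Calls of direction count the sign of these. Standard errors are the log2 fold change over the square root of edgeR's F. Alternatives used limma 3.58.1 and DESeq2 1.42.0. The fit was tested on simulated data with 50 genes set to each change, all with a mean log2 CPM above 1, and with independent uteri. It called 13 and 17 of 50 genes set 0.5 lower and higher on the log2 scale, and 46 and 48 of 50 set 1 lower and higher. A gene that did not pass may thus still have changed by a small amount. These shares need not hold for the real fit, where more genes passed and uteri share conceptuses.

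The members and the 41 lists were chosen with earlier results of these data known. Named genes are the 12 largest changes each way off the interferon list with a mean log2 CPM from 1 upward and one sign in 11 of 11 uteri, 3 interferon genes of smallest p, up to 3 called members of smallest p each way per list, the 6 of largest SD over uteri with a mean log2 CPM from 3 upward, and trophoblast and smooth muscle markers. Others named complete a count or stand beside a named gene, and were chosen after their values were seen. Gene neighbours come from RefSeq's ARS-UCD2.0 table by symbol. A few items are not reported here.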

Additional observations from a re-analysis of the deposited data

How the results depend on the processing

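Counts of genes more abundant in co-culture ranged over 28 alternatives from 610 to 1315, and from 387 to 998 off the interferon list. Those of less abundant genes ranged from 116 to 864, and from 107 to 816 off it. The fit with uterus 69 moved to culture set 1, given below, is not among the 28. Its counts off the list lie below these ranges. Without the replicate block, 610 and 116 genes were more and less abundant, 387 and 107 of them off the list, and 46.8% of the 1028 calls off the list remained. Less abundant genes numbered 206 (193 off the list) with 1 co-culture per uterus, 864 (816) with DESeq2, 801 (757) with 1 factor of unwanted variation, 144 (119) with limma over culture sets, where 426 genes off the list were more abundant, 110 (94) with uterus 69 moved to culture set 1 in that fit, chosen after the data were seen, where 616 genes were more abundant (367 off the list), and 182 (169) without uteri 38 and 69. Leaving out each uterus or culture set in turn gave 660 to 1111 more and 123 to 592 less abundant genes, 423 to 827 and 114 to 561 off the list. The fewest increases came without culture set 2 (uteri 19 and 54) and the fewest decreases without culture set 3 (uteri 14 and 39). No called named gene changed sign in any alternative. The median log2 fold change of all genes stayed within 0.1 of 0 in each. Off the list, 2.42% of genes under a log2 CPM of 1 were more abundant, with a median standard error of 0.26, against 7.43% between 5 and 7, with 0.09.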

Other observations

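Some increases off the interferon list lay next to genes on it. This was looked at after FAM3B and IL23A had been seen, so it is a description and not a test. By the order of protein-coding genes with a unique symbol in RefSeq's ARS-UCD2.0 table, 13840 tested genes off the list could be placed. Of 664 more abundant genes, 35 (5.27%) adjoined a gene of the interferon list that was itself more abundant, as did 13 of 162 (8.02%) that changed by more than 2-fold, 1 of 340 (0.294%) less abundant genes and 140 of 12836 (1.09%) genes that did not pass. Besides FAM3B beside MX2 and IL23A beside STAT2, these pairs held GHSR, the ghrelin receptor, beside TNFSF10 (log2 fold change 3.08), HES4, a transcriptional repressor, beside ISG15 (2.46), CDHR5, a protocadherin of microvilli, beside IRF7 (2.12), REC8, a meiotic cohesin, beside IRF9 (2.11), and RBM43 beside NMI (2.07). The study names a stranded library kit, but neither labels nor methods say whether counting used strand. Whether reads of a neighbour were counted for these genes was not tested. Some of them may also be interferon-regulated genes that the list lacks.

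Further examples of the 85 genes off the list whose levels did not overlap between cultures were chosen after their values were seen. XRN2, a nuclear exonuclease, changed by 1.70, GTF2B, a general transcription factor, by 1.68, DAXX, a histone chaperone, by 1.79, XPO1, the export receptor for proteins and RNA, by 1.10 and TENT2, a poly(A) polymerase, by 1.35. NAMPT, which makes the precursor of NAD, changed by 1.25. The decreases without overlap were SOX18 (-1.23), RCN3, a calcium-binding protein of the secretory pathway (-0.82), MAGED1 (-0.68) and CIBAR1 (-0.40).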
